A study of Danio rerio with 16 samples.

Results

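Connexin genes were followed in whole zebrafish larvae exposed to triptolide (TP), a diterpene triepoxide from the vine Tripterygium wilfordii that is toxic to the liver. The members were all genes whose deposited symbol began with cx and a digit, or with gja, gjb, gjc, gjd or gje and a digit, with transcript counts summed per Ensembl gene, which gave 36 genes (52 transcripts) of 31812. Wild type WIK larvae at 5 days post fertilisation received 1.6 µM TP (8 pools) or vehicle (8 pools) for 6 h, each pool being 30 whole larvae from a separate dish. Total RNA was sequenced from every pool, and the summed counts were 26631852 to 41093922 per TP library (median 34554464) and 19679120 to 75490916 per control library (median 31374554). In pooled whole larvae, fewer cells of a type and less RNA per cell cannot be told apart. Lower and higher below are relative to the other transcripts of a library under every scaling used, and amounts of RNA per larva were not measured. Values below are CPM (counts divided by the library total and multiplied by 1000000), and log2 fold changes are TP over control from edgeR's quasi-likelihood test, called at an adjusted p of 0.01 or less over all genes tested.

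Connexins are the channel proteins of gap junctions. Connexin subunits assemble into a hemichannel, hemichannels of neighbouring cells dock end to end, and the resulting pore lets ions and small molecules including cyclic nucleotides and inositol trisphosphate pass directly between the cells. The alpha (gja), beta (gjb), gamma (gjc), delta (gjd) and epsilon (gje) branches of the family differ in where they are made: in heart and vessels, epidermis and liver, glia, electrical synapses and lens, among others. Zebrafish keep duplicated copies of many connexins, and most fish genes are named after the predicted size of the protein.

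After TP, cx52.9 and cx52.6 of retinal horizontal cells, cx43, which glia make, and cx35b of electrical synapses were lower, the muscle connexin GJD4 and the beta connexin cx30.3 were higher, and cx41.8, the most abundant of all, did not pass the test. Of the 36 members 35 passed the filter on low counts, and 13 were lower, 3 higher and 19 did not pass the test, which was 37.1% lower and 8.57% higher. Over all 24462 genes tested, 41.9% were lower, 4.59% higher and 46.5% called in either direction. The median log2 fold change was −0.44 over the 35 connexins and −0.35 over all genes tested. Single connexins ranged from −1.98 (cx52.9) to 1.64 (GJD4). In CPM, the TP and control libraries did not overlap for 7 connexins that were lower, against 20.9% of all genes, and for 1 that was higher, against 1.9% of all genes (22.8% in either direction). The scaling decided part of this count: with TMM factors, which moved the median of all genes to about 0 (−0.00107), 7 connexins were lower and 5 higher, against 16.5% and 15.9% of all genes. The same direction was called under both scalings for 10 connexins, among them cx52.9, cx52.6, cx43, cx35b and cx23, which were lower, and cx30.3, cx31.7 and GJD4, which were higher. The share of all genes called under both scalings was not taken, so this count has no background beside it. Both mates of a read pair were counted, and with counts halved cx52.9 and cx31.7 fell below the filter and were not tested.

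**Figure D1:**
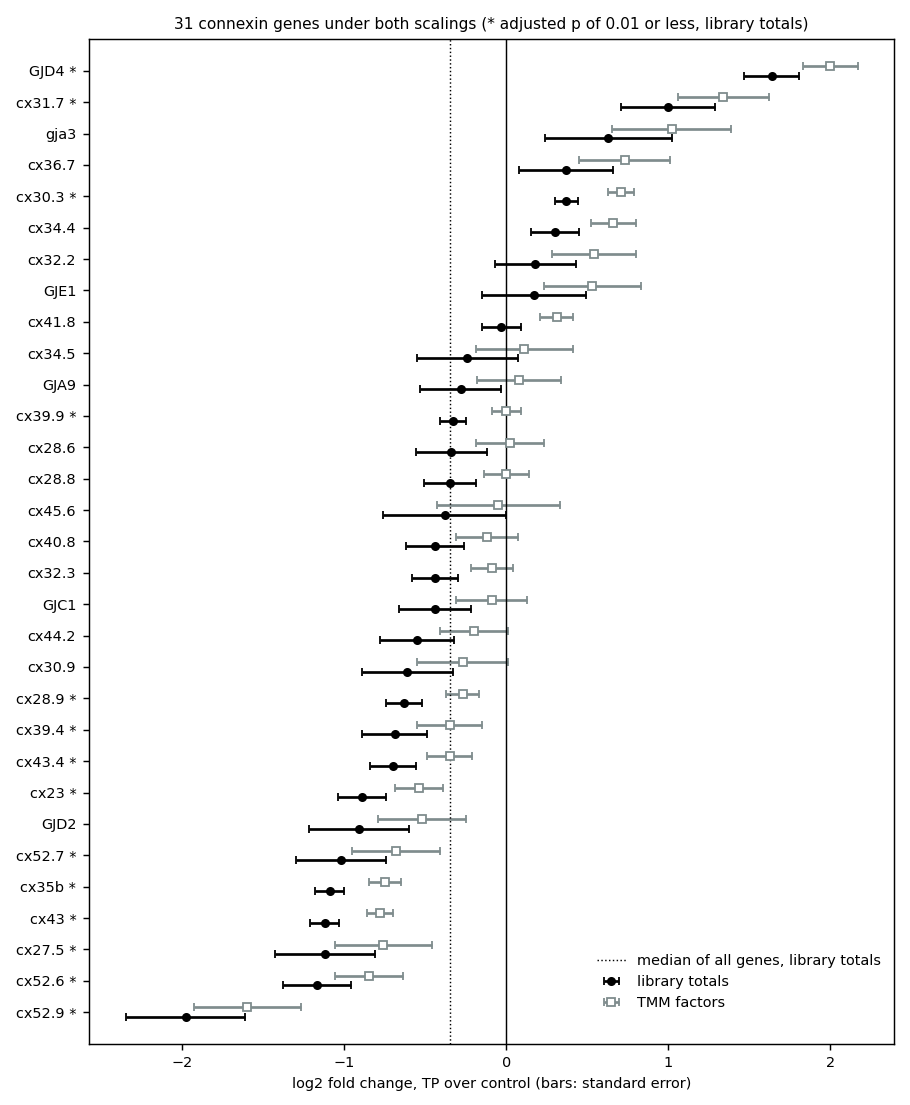
Log2 fold change (TP over control, x axis) of connexin genes with library totals (black circles) and with TMM factors (grey squares), bars showing the standard error and stars genes at an adjusted p of 0.01 or less. With library totals the estimates run from −1.98 for cx52.9 to 1.64 for GJD4, and the dotted line marks the median of all genes, −0.35.

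Transcripts of cx43 (the fish copy of mammalian GJA1, made in astrocyte-like glia, heart and growing fin bone; chromosome 20, 40818053 to 40823420 of GRCz10) were at 27.2, 33.9 and 43.41 CPM (lowest, median and highest) in TP libraries, against 66.2, 72.9 and 85.4 CPM in control libraries. Every TP library lay below every control library, with a log2 fold change of −1.12 (SE 0.09, n = 8 per group, edgeR adjusted p = 7.4e-09). With TMM factors the difference was −0.78 (edgeR adjusted p = 1.8e-07), and leaving out any single library moved it between −1.18 and −1.08. Its 3 annotated transcripts kept nearly the same shares of its reads, at 47.5%, 42.2% and 10.3% in TP libraries and 48.1%, 42.3% and 9.64% in control libraries, although transcripts of a gene share sequence and their counts are not independent.

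The fish copy of GJB1 on chromosome 5 (23118377 to 23245326), cx27.5, whose mammalian counterpart serves liver cells and myelinating Schwann cells, had 0.0984, 0.418 and 0.891 CPM in TP libraries, against 0.690, 0.910 and 1.59 CPM in control libraries. In this case the groups overlapped, with 6 TP libraries below every control library, and the log2 fold change was −1.12 (SE 0.31, edgeR adjusted p = 0.0037). The call was lost without control library 2 (−0.98, edgeR adjusted p = 0.013) and with TMM factors (−0.76, edgeR adjusted p = 0.041). One annotated transcript of cx27.5 spans cx39.9 and other genes, and the sources do not say whether the counting used strand. Reads were aligned to transcript sequences, so overlapping spans, here and below, matter only where those sequences overlap, which was not checked.

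Cell type markers were read beside 41.9% of all genes lower. With TMM factors their median log2 fold change was −0.73 for radial glia, −0.10 for oligodendrocytes and −0.23 for neurons. Of 6 radial glia markers 4 were lower and none higher, and their summed level was 210.3 to 274 CPM in TP libraries and 358 to 567.8 CPM in control libraries. Of 6 oligodendrocyte markers 4 were lower, with summed levels of 102 to 127 CPM in TP libraries and 141 to 197 CPM in control libraries. Among 6 neuronal markers 3 were lower, at 493 to 631 CPM in TP libraries and 579 to 921 CPM in control libraries, and none of the listed markers was at 0 in these lists. Their part in the connexin results was not tested.

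The neuronal connexin cx35b (a fish copy of GJD2, the channel of electrical synapses in brain and retina; chromosome 20, 9971266 to 9976473) was at 5.40, 5.96 and 6.54 CPM in TP libraries, against 9.74, 12.9 and 14.4 CPM in control libraries. The TP values were close together and all below the control values, with a log2 fold change of −1.09 (SE 0.09, edgeR adjusted p = 5.6e-09). With TMM factors it was −0.75 (edgeR adjusted p = 4e-06). Its duplicate, deposited as GJD2 (chromosome 17, 50887139 to 50887999), had 0.847, 1.06 and 1.82 CPM in TP libraries, against 1.16, 1.71 and 5.84 CPM in control libraries. Here control library 1 stood apart at the top, the groups overlapped, and the log2 fold change of −0.91 (SE 0.31) did not pass the test (edgeR adjusted p = 0.017). Without that library the value was −0.56 (edgeR adjusted p = 0.058).

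The connexins cx52.9, cx52.6 and cx52.7 were lower. They are genes of horizontal cells, the interneurons that couple laterally behind the photoreceptors of the retina. GJA9, the duplicate of cx52.9, did not pass the test, at −0.28 (SE 0.25, edgeR adjusted p = 0.36). The lowest estimate in the family was that of cx52.9 (chromosome 17, 53320343 to 53322523), with 0.0594, 0.236 and 0.395 CPM in TP libraries, against 0.313, 0.799 and 2.14 CPM in control libraries. It rested on 66 counts in all TP libraries together and 272 in all control libraries, with 6 TP libraries below every control library and control library 1 standing apart at the top. The log2 fold change was −1.98 (SE 0.37, edgeR adjusted p = 0.00012), and −1.68 without that control library (edgeR adjusted p = 0.00021). With counts halved to give read pairs, cx52.9 fell below the filter on low counts and was not tested. Its span also overlaps another annotated gene.

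Levels of cx52.6 (chromosome 20, 24061425 to 24065283) were 0.394, 0.728 and 1.22 CPM in TP libraries, against 1.38, 1.70 and 2.10 CPM in control libraries. These groups did not overlap, and the log2 fold change was −1.17 (SE 0.21, edgeR adjusted p = 9.6e-05). Its duplicate cx52.7 (chromosome 17, 15736157 to 15739363) had 0.192, 0.596 and 0.878 CPM in TP libraries, against 0.726, 1.04 and 1.83 CPM in control libraries. The groups overlapped, with 6 TP libraries below every control library, at a log2 fold change of −1.02 (SE 0.28, edgeR adjusted p = 0.0039). That call was lost with TMM factors (−0.68, edgeR adjusted p = 0.046) and when the most abundant transcript stood for the gene (−0.92, edgeR adjusted p = 0.012).

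Of 9 symbols listed for the retina, 5 were found among the deposited symbols. Of these 5 connexins, 4 were lower and 1 did not pass, with a median of −1.09. Over all genes, 41.9% were lower and the median was −0.35. The duplicates GJD2 and GJA9, which did not pass, stand outside these 5. With TMM factors 3 of the 5 were lower and 1 higher, beside 16.5% and 15.9% of all genes. Markers of retinal cells were read beside the 41.9% of all genes lower with library totals. The summed level of 4 genes listed as horizontal cell markers was 26.5 to 34.98 CPM in TP libraries and 69.0 to 116 CPM in control libraries, with 3 of the 4 lower. For 9 photoreceptor markers it was 1514 to 2359 CPM in TP libraries and 2584 to 3628 CPM in control libraries, with 7 of the 9 lower. Any other cells of the whole larva that make these genes add to the sums, so they are not levels of retinal cells alone. The part of these cell types in the result was not tested.

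In the lens, 1 of 3 listed connexins was lower, beside 41.9% of all genes. Transcripts of cx23 (a fish copy of GJE1; chromosome 20, 37391233 to 37395395) were at 1.62, 2.27 and 3.16 CPM in TP libraries, against 3.26, 4.21 and 5.29 CPM in control libraries. The highest TP library lay just below the lowest control library, and the log2 fold change was −0.89 (SE 0.15, edgeR adjusted p = 4.7e-05). The lens fibre connexin gja3 did not pass the test, with a log2 fold change of 0.63 (edgeR adjusted p = 0.17). No read was counted for gja3 in control library 5, where 3 read pairs would be 0.188 CPM. Of 8 lens markers 2 were lower, and their summed level was 409.9 to 716 CPM in TP libraries and 424 to 822 CPM in control libraries.

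**Figure D2:**
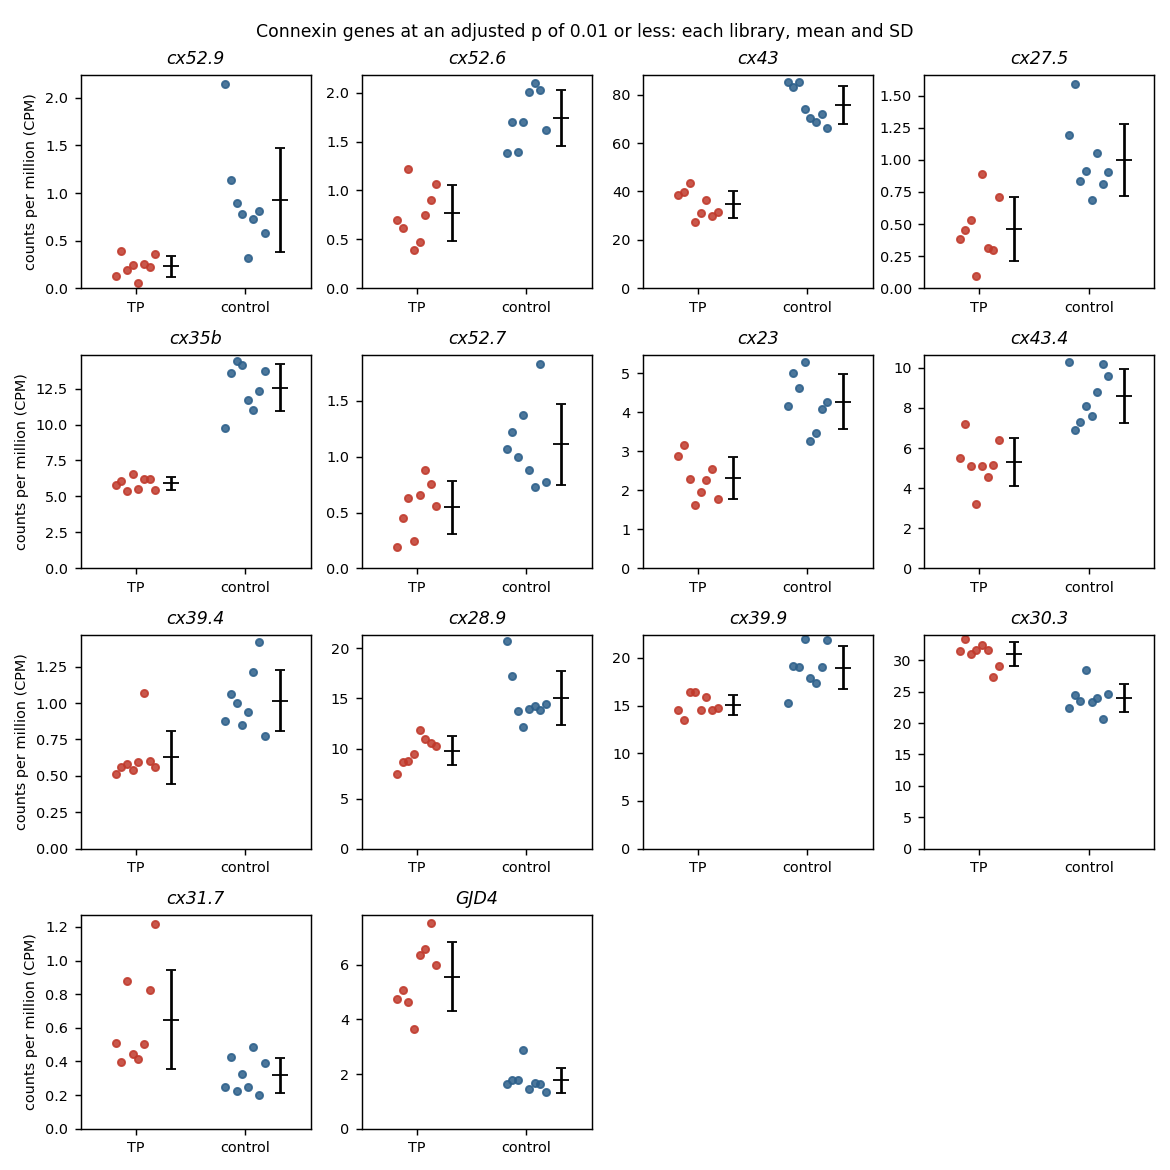
CPM (y axis, from 0) of called connexins in every library, TP points left of control points, with the mean and SD of each group as a bar. The groups do not overlap for cx52.6, cx43, cx35b, cx23, cx28.9 and GJD4.

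Of 10 connexins tested from the list for skin, inner ear and liver, 2 were lower (cx27.5 above and cx28.9 below), 2 were higher (cx30.3 and cx31.7) and 6 did not pass, with a median log2 fold change of −0.29, beside 41.9% lower and 4.59% higher over all genes. With TMM factors 0 were lower and 3 higher, and DESeq2 gave the same counts. Over all 24462 genes tested, 16.5% were lower and 15.9% higher with TMM factors, and 4359 were lower and 4379 higher with DESeq2. With library totals 4 of the 10 were lower and 2 higher at an unadjusted p under 0.05 by edgeR. At that threshold 13645 of all 24462 genes tested were lower and 1801 higher. Membership of these 10 rests on the list alone, since whole larvae do not show where a gene is made. The fish copy of GJB6, cx30.3 (a gene of skin and inner ear in mammals; chromosome 9, 21590320 to 21594197), was at 27.3, 31.5 and 33.4 CPM in TP libraries, against 20.6, 23.7 and 28.4 CPM in control libraries. Here 7 TP libraries lay above every control library, and the log2 fold change was 0.37 (SE 0.07, edgeR adjusted p = 0.00011). With TMM factors it was 0.71 (edgeR adjusted p = 4.5e-07).

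The second gene matched to GJB1, cx31.7 (chromosome 14, 12010592 to 12028039), was higher after TP, at 0.395, 0.507 and 1.22 CPM in TP libraries and 0.203, 0.289 and 0.484 CPM in control libraries. It had 184 counts in TP libraries and 94 in control libraries, 5 TP libraries were above every control library, and the log2 fold change was 1.0 (SE 0.29, edgeR adjusted p = 0.0058). The call was lost, with an edgeR adjusted p of 0.012 to 0.018, without TP library 3 (0.92), 7 (0.95) or 8 (0.80) or control library 1 (0.96), 3 (0.94), 5 (0.96) or 7 (0.94). With counts halved to give read pairs, cx31.7 fell below the filter on low counts and was not tested. Its span overlaps another annotated gene. Skin markers were lower for 3 of 6, beside 41.9% of all genes. Their summed levels were 8194 to 9453 CPM in TP libraries and 7931 to 9710 CPM in control libraries. Liver markers were lower for 2 and higher for 2 of 6, beside 41.9% lower and 4.59% higher over all genes. Their summed levels were 2092 to 2849 CPM in TP libraries and 1671 to 2437 CPM in control libraries. The part of skin and liver markers in these results was not tested.

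Of 7 connexins tested from the list for heart and vessels, 3 were lower (cx43, cx43.4 and cx39.4) and 4 did not pass, with a median log2 fold change of −0.44, beside 41.9% of all genes lower and a median of −0.35. Membership of these 7 too rests on the list alone, and cx43 and cx43.4 were also listed for glia. With TMM factors 1 of the 7, cx43, was lower, beside 16.5% of all genes. The most abundant connexin, cx41.8 (a fish copy of GJA5, needed for the adult stripe pattern; chromosome 1, 46723502 to 46740221), was at 97.6, 133 and 160.4 CPM in TP libraries, against 103, 127 and 176 CPM in control libraries. The groups overlapped almost wholly, and the log2 fold change of −0.03 (95% interval −0.26 to 0.20, edgeR adjusted p = 0.84) did not pass the test. Its direction depended on the scaling, at 0.31 with TMM factors (edgeR adjusted p = 0.017) and 0.32 with DESeq2's size factors (DESeq2 adjusted p = 0.006).

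The partner of cx41.8 in pigment cells, cx39.4 (chromosome 19, 37566289 to 37567316), had 0.512, 0.574 and 1.07 CPM in TP libraries, against 0.776, 0.972 and 1.42 CPM in control libraries. TP library 6 stood apart at the top of its group, the other 7 TP libraries lay below every control library, and the log2 fold change was −0.69 (SE 0.20, edgeR adjusted p = 0.0056). This call was lost with TMM factors (−0.35, edgeR adjusted p = 0.17), and the value was −0.61 to −0.68 (edgeR adjusted p = 0.01 to 0.013) without TP library 1, 2, 3, 4, 5 or 8 or control library 2, 6 or 7. Without TP library 6 it was −0.84 (edgeR adjusted p = 0.00079).

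Transcripts of cx43.4 (made in notochord and Kupffer's vesicle of the fish embryo; chromosome 9, 46605108 to 46615368) were at 3.20, 5.15 and 7.22 CPM in TP libraries, against 6.89, 8.45 and 10.3 CPM in control libraries. All but 1 TP library lay below every control library, with a log2 fold change of −0.70 (SE 0.14, edgeR adjusted p = 0.00021) that was −0.35 with TMM factors (edgeR adjusted p = 0.045). Levels of cx28.9, an alpha connexin with no close mammalian name (chromosome 20, 40847644 to 40853843), were 7.48, 9.86 and 11.9 CPM in TP libraries, against 12.2, 14.1 and 20.7 CPM in control libraries. The highest TP library lay just below the lowest control library, with a log2 fold change of −0.63 (SE 0.11, edgeR adjusted p = 8.1e-05) that was −0.27 with TMM factors (edgeR adjusted p = 0.025). Beside 41.9% of all genes lower, heart markers were lower for 1 of 6 (159.96 to 171 CPM in TP libraries, 173 to 200.1 CPM in control libraries). Endothelial markers were lower for 5 of 7 (79.6 to 101 CPM in TP libraries, 119 to 150.1 CPM in control libraries). The part of heart and endothelial markers was not tested.

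The muscle connexins did not move together. GJD4, whose mouse counterpart is made in developing skeletal muscle (chromosome 24, 4402486 to 4408464), had the highest estimate in the family, with 3.64, 5.54 and 7.51 CPM in TP libraries, against 1.36, 1.66 and 2.87 CPM in control libraries. Every TP library was above every control library, although control library 4 stood apart at the top of its group. The log2 fold change was 1.64 (SE 0.17, edgeR adjusted p = 9.9e-08), 2.0 with TMM factors (edgeR adjusted p = 1e-08), and between 1.57 and 1.78 when any single library was left out.

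The zebrafish muscle connexin cx39.9 (chromosome 5, 23126584 to 23132786) was at 13.5, 14.7 and 16.4 CPM in TP libraries, against 15.3, 19.1 and 22.0 CPM in control libraries. The groups overlapped, with 5 TP libraries below every control library, and the log2 fold change was −0.33 (SE 0.08, edgeR adjusted p = 0.0013), close to the median of all genes. With TMM factors it was 0.00 (edgeR adjusted p = 0.99). Its span lies within that of cx27.5. All 6 skeletal muscle markers were higher, beside 4.59% of all genes, with log2 fold changes of 0.26 to 0.37. Their summed levels were 37768 to 45231 CPM in TP libraries and 29935 to 36049 CPM in control libraries, and their part in either result was not tested.

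The 19 connexins tested that did not pass had log2 fold changes from −0.91 (GJD2) to 0.63 (gja3). Of these, cx32.3 lay nearest to the threshold, at −0.44 (SE 0.14, edgeR adjusted p = 0.013). Estimates below 0 included those of cx30.9 (−0.61), cx44.2 (−0.55), cx40.8 (−0.44), GJC1 (−0.44), cx45.6 (−0.38), cx28.8 (−0.35), cx28.6 (−0.34), GJA9 (−0.28) and cx34.5 (−0.24), and estimates above 0 those of GJE1 (0.17), cx32.2 (0.18), cx34.4 (0.30) and cx36.7 (0.37). With TMM factors cx34.4 passed as higher (0.66, edgeR adjusted p = 0.00052). The connexin left out by the filter, cx28.1, had 18 counts over all TP libraries and 30 over all control libraries.

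By branch, 7 of 17 alpha, 2 of 8 beta, 2 of 3 gamma, 1 of 4 delta and 1 of 2 epsilon connexins were lower, and 2 beta and 1 delta connexins were higher, beside 41.9% lower and 4.59% higher over all genes. The alpha share of 41.2% lower was near that of all genes. With TMM factors 3 alpha connexins were lower and 1 higher, and 1 beta connexin was lower and 3 higher. The shares of all genes were then 16.5% lower and 15.9% higher. The 35th gene, cx44.2, matched no branch.

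Levels of different genes were compared as CPM per kilobase of transcript. Summed over the family, this level was 124 ± 10.6 in TP libraries and 156 ± 15.2 in control libraries (SD, n = 8 each), and the ranges of 111 to 139.7 in TP libraries and 139.2 to 180.4 in control libraries overlapped at their edges. After TP cx41.8 led at 46.7 ± 8.30, cx30.3 at 17.2 ± 1.32, cx43 at 14.8 ± 2.41 and cx39.9 at 8.85 ± 0.641 CPM per kilobase. In controls cx41.8 was at 47.6 ± 8.53, cx43 at 31.8 ± 3.62, cx30.3 at 13.2 ± 1.27 and cx39.9 at 11.1 ± 1.33 CPM per kilobase. By these means cx30.3 stood above cx43 after TP and below it in controls, but the TP ranges of cx30.3 (14.7 to 18.7) and cx43 (11.1 to 18.5) overlapped, and cx43 was the higher in TP library 3. Of the 35 steps between neighbours in the control order, 32 had overlapping library ranges, and the 3 that did not included cx41.8 above cx43 and cx43 above cx30.3. GJD4 stood 14th of 36 after TP, at 1.38 ± 0.314, and 28th in controls, at 0.440 ± 0.117 CPM per kilobase.

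**Figure D3:**
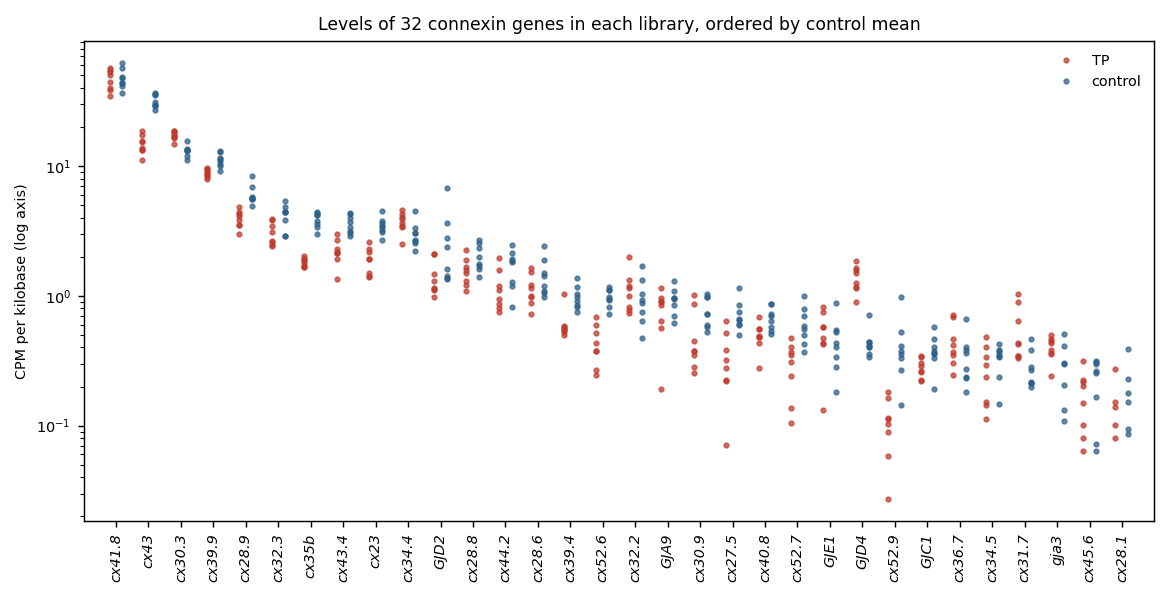
Level of connexin genes in CPM per kilobase of transcript (log axis) in each library, ordered by the control mean, TP points left of control points (a library at 0 is not drawn). The gene cx41.8 leads in both groups, and the cx43 points lie lower in TP libraries (mean 14.8) than in control libraries (mean 31.8).

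As a share of the family's summed level, which does not depend on the library scaling, cx43 made up 11.9% ± 1.89 in TP libraries and 20.4% ± 1.46 in control libraries (SD, n = 8 each). The share of cx30.3 was 13.9% ± 1.33 in TP libraries and 8.52% ± 1.02 in control libraries. The TP and control ranges of both did not overlap. The share of cx41.8 was 37.3% ± 3.85 in TP libraries and 30.5% ± 2.98 in control libraries, with overlapping ranges, and that of cx39.9 was 7.14% ± 0.657 in TP libraries and 7.20% ± 1.06 in control libraries. Shares of one sum are not independent of each other.

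Ratios of connexin pairs within a library also do not depend on the scaling. They were taken as log2 ratios of counts plus 1 for 10 duplicate pairs and 10 pairs of chromosomal neighbours among the connexins tested. The choice was made after the values of the genes were seen. The gene of the lower fold change was put on top, so that only the size of a difference is informative. By exact 2-sided permutation tests, adjusted over the 20 pairs, 5 duplicate pairs and 4 neighbour pairs differed between TP and control libraries at an adjusted p of 0.05 or less. The TP and control ratios did not overlap for 1 of the 20 pairs. Pairs of other genes were not tested, so these counts cannot be read as a trait of duplicates or neighbours. The 46.5% of all genes called in either direction are single genes by edgeR at an adjusted p of 0.01 or less. That is another measure and threshold than those of the pairs. Some genes stand in more than 1 pair.

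Between the GJB1 copies, the log2 ratio of cx27.5 to cx31.7 was −0.56 ± 0.90 in TP libraries and 1.56 ± 0.38 in control libraries (SD, n = 8 each), a difference of −2.13 at the smallest p that 8 against 8 libraries allow in this exact test (0.00016, adjusted p = 0.0031). In counts, cx27.5 stood below cx31.7 in 6 of the 8 TP libraries and above it in every control library. The ratio of cx43 to its duplicate cx40.8 was 5.33 in TP libraries and 6.03 in control libraries, a difference of −0.70 (exact permutation test, adjusted p = 0.023).

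The horizontal cell gene cx52.9 and GJA9 gave a mean ratio of −2.44 in TP libraries and −0.98 in control libraries, differing by −1.46 (exact permutation test, adjusted p = 0.029). For cx23 and GJE1 the ratio was 1.69 in TP libraries and 2.77 in control libraries, differing by −1.08 (exact permutation test, adjusted p = 0.049). Differences in 5 duplicate pairs did not pass, among them cx52.6 and cx52.7 (−0.15, adjusted p = 0.68) and cx35b and GJD2 (−0.36, adjusted p = 0.42), by exact permutation tests.

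Of the 10 pairs of neighbours on a chromosome, 4 differed at that threshold and the others did not pass. On chromosome 20 a row of 6 connexin genes begins with cx43, which is followed after 3751 bases by cx32.2. The log2 ratio of cx43 to cx32.2 was 4.87 in TP libraries and 6.23 in control libraries, a difference of −1.35 (exact permutation test, adjusted p = 0.0031). Further along the row, cx28.1, which the filter left out, lies between cx32.2 and cx28.9. The ratio of cx28.9 to cx32.2 was 3.05 in TP libraries and 3.89 in control libraries (difference −0.84, exact permutation test, adjusted p = 0.023). That of cx28.9 to cx32.3, 2564 bases apart, differed by −0.19 and did not pass (exact permutation test, adjusted p = 0.40). For cx30.3 and gja3, 2920 bases apart on chromosome 9, the difference of −0.66 did not pass (exact permutation test, adjusted p = 0.40).

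**Figure D4:**
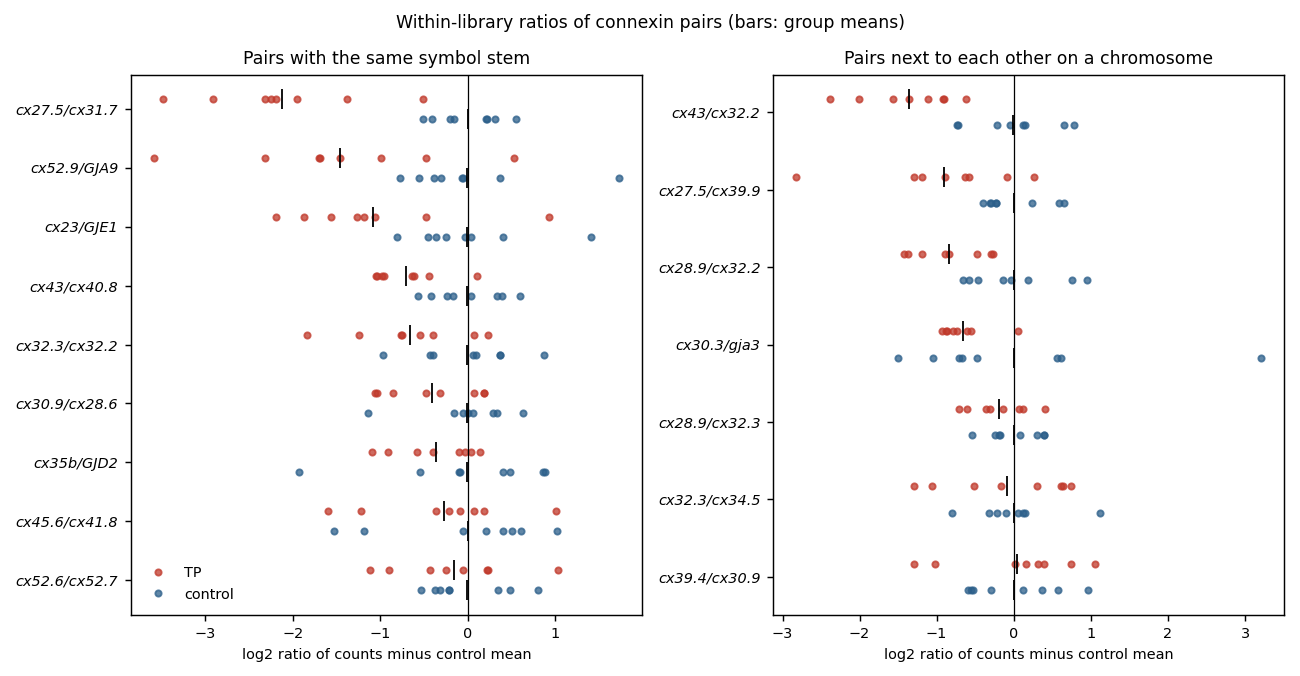
Log2 ratio of counts within each library minus the control mean of that pair (x axis), for duplicate and neighbouring connexin pairs, TP points above control points, with group means as bars. For cx27.5 over cx31.7 the TP points lie below the control points, with a difference of means of −2.13.

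Gap junctions work with scaffold proteins, with related channels and with the signalling enzymes that set channel opening. Of 127 such genes tested, out of 129 listed, 59 were lower (46.5%) and 2 higher (1.57%), with a median log2 fold change of −0.41, beside 41.9% lower, 4.59% higher and −0.35 over all genes. With TMM factors 27 of the 127 were lower and 16 higher, beside 16.5% and 15.9% of all genes. Among scaffolds and junction partners 6 of 18 were lower, with the adhesion protein gene cdh2 at −0.87 (edgeR adjusted p = 9.3e-06), dlg1 at −0.85 (edgeR adjusted p = 3.8e-08) and the tight junction scaffolds tjp2a at −0.63 (edgeR adjusted p = 6.2e-06) and tjp1a at −0.42 (edgeR adjusted p = 0.0018). The rest of the 6 were cav1 at −0.43 (edgeR adjusted p = 1.5e-05) and csnk1db at −0.27 (edgeR adjusted p = 0.0078). With TMM factors 3 of the 18 were lower and 2 higher, and tjp1a was at −0.06 (edgeR adjusted p = 0.53). Under the same factors cav1 was at −0.09 (edgeR adjusted p = 0.29) and csnk1db at 0.09 (edgeR adjusted p = 0.23). Of 4 pannexins, membrane channels unrelated in sequence to connexins, panx1b was at −0.51 (edgeR adjusted p = 0.00089) and panx1a at −0.25 (edgeR adjusted p = 0.0092), while panx2 and panx3 did not pass. With TMM factors panx1b was at −0.16 (edgeR adjusted p = 0.21) and panx1a at 0.09 (edgeR adjusted p = 0.37), and 0 pannexins were called.

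By group, read beside 41.9% of all genes lower, adenylate cyclases, which make the cyclic AMP that crosses gap junctions, were lower for 9 of 13, led by adcy3b at −1.72 (edgeR adjusted p = 5.1e-07). Inositol trisphosphate receptors were lower for 3 of 4, but with TMM factors or DESeq2 0 were lower and 1 higher (itpr3, 0.18 with TMM factors, edgeR adjusted p = 0.0061). With library totals the cyclic GMP arm was lower for 3 of 6, receptors for 7 of 17, Ras and MAP kinase genes for 10 of 20, and protein kinase C genes for 0 of 5 (with 3 of the 5 lower at an unadjusted p under 0.05 by edgeR and 0 called by DESeq2). At that unadjusted p 13645 of all 24462 genes tested were lower. Among the receptors the dopamine receptors drd1b and drd1a were at −1.51 and −1.20 (edgeR adjusted p = 5.9e-07 and 0.0072). With TMM factors drd1a was at −0.86 and did not pass (edgeR adjusted p = 0.054). Among the kinases map2k5 was at −1.18 (edgeR adjusted p = 4.7e-09). PLCB4, a phospholipase C that releases inositol trisphosphate, was higher, at 0.80 (edgeR adjusted p = 0.0053). Tubulins, whose microtubules deliver connexins to the membrane, were lower for 12 of 16, with tuba1c at −1.38, tuba2 and tuba1b at −1.22 and tuba1a at −1.18, and higher for 1, tuba4l at 0.97 (edgeR adjusted p = 0.0058), although close tubulin copies may share reads. With TMM factors 16.5% of all genes were lower and 15.9% higher. Beside these shares 6 adenylate cyclases were lower and 1 higher, and 8 tubulins were lower and 2 higher. The same scaling gave 2 lower and 1 higher for the cyclic GMP arm, 4 and 0 for receptors, and 4 and 2 for Ras and MAP kinase genes.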

How the data were processed

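RNA from 16 pools of 5 dpf larvae was sequenced as paired 75 bp reads from stranded total RNA libraries. The authors aligned the reads with Bowtie2 to GRCz10 transcripts of Ensembl and deposited raw counts per transcript. No source used here gives the aligner's version. Every deposited count was even, so that both mates of a pair were counted. Counts were summed per Ensembl gene, and the 209 transcripts without a gene identifier stayed out of tests. Genes were filtered with filterByExpr and compared with edgeR 4.0.16 (quasi-likelihood test, library totals as the only scaling, R 4.3.3), with Benjamini-Hochberg adjustment over all genes tested and a threshold of 0.01. DESeq2 1.42.0, limma 3.58.1 (log2 of scaled counts with a pseudocount of 1), TMM factors, other filters and totals, and omission of each library were the alternatives. Pair ratios used scipy 1.17.1. The fit was tested on simulated data.

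Library totals ranged from 19679120 to 75490916, and precision for single genes follows their counts. Of the connexins 32 of 36 (88.9%) matched a current symbol in a RefSeq name table. Connexins described in full were, with the exceptions below, those called and the 5 most abundant, and the other members were given by their estimates, some in full beside a duplicate. From the pathway list the genes named were those with the 8 largest called changes, those called higher, scaffolds and pannexins. The members, gene lists and markers were chosen with earlier results of these data known. The pools came from separate dishes of larvae, so p-values measure the spread between dishes. Results for some connexins are not reported here, although these genes stay in the counts over the family.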

Additional observations from a re-analysis of the deposited data

Results flagged for a closer look

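In 72 groups of 8 libraries (36 connexins in TP and control), 6 had a single library far from the rest by Dixon's criterion, which chance flags in about 5 percent of groups. In TP libraries, cx39.4 was 1.07 CPM in library 6 and 0.512 to 0.601 in the others, and cx32.2 was 2.14 CPM in library 5 and 0.790 to 1.43 in the others. In control libraries, GJD2 was 5.84 CPM in library 1 and 1.16 to 3.13 in the others, and cx52.9 was 2.14 CPM in the same library and 0.313 to 1.14 in the others. GJD4 was 2.87 CPM in control library 4 and 1.36 to 1.78 in the others, and cx36.7 was 0.915 CPM in control library 7 and 0.251 to 0.556 in the others. Without the library concerned, the log2 fold change of TP over control was 0.02 for cx32.2 (edgeR adjusted p = 0.96), 1.78 for GJD4 (edgeR adjusted p = 2.4e-08) and 0.54 for cx36.7 (edgeR adjusted p = 0.1).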

How the results depend on the processing

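Of connexins, 13 were lower and 3 higher with library totals. The counts were 7 and 6 with DESeq2, 7 and 5 with TMM factors, 8 and 1 within libraries 1 to 4, and 11 to 14 and 2 to 3 when any single library was left out. They were 12 and 2 with halved counts, where cx52.9 and cx31.7 fell below the filter. Of the pathway genes, 59 were lower and 2 higher, against 28 and 18 with DESeq2, 27 and 16 with TMM factors, 38 and 0 within libraries 1 to 4, and 54 to 62 and 0 to 2 without single libraries. The number of higher pathway genes was also 1 with halved counts or the most abundant transcript, 0 with a replicate block and 4 with totals that left out mitochondrial and ribosomal transcripts. Over all genes 11380 were called, 8738 with DESeq2, 7933 with TMM factors, 6772 within libraries 1 to 4 and 10278 to 11634 without single libraries.

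Directions turned for some connexins that had not passed the test and for cx39.9. With DESeq2 and with TMM factors these were cx28.6 (0.03 and 0.02), cx39.9 (0.01 and 0.00), cx34.5 (0.12 and 0.11), cx41.8 (0.32 and 0.31) and GJA9 (0.08 in both), and with DESeq2 alone cx28.8 (0.01). Totals without mitochondrial and ribosomal transcripts gave 0.07 for cx41.8, which ran from −0.08 to 0.04 without single libraries. Within libraries 1 to 4, GJE1 was −0.27 and cx32.2 −0.05, and within libraries 5 to 8, cx28.6 was 0.04, cx41.8 0.24 and GJA9 0.09. Pair ratios turned for cx52.6 over cx52.7 (0.52 within libraries 1 to 4), cx45.6 over cx41.8 (0.04 with the most abundant transcript, 0.48 within libraries 1 to 4), cx35b over GJD2 (0.17 within libraries 1 to 4), cx39.4 over cx30.9 (−0.09 within libraries 5 to 8, −0.10 to 0.23 without single libraries) and cx32.3 over cx34.5 (0.18 within libraries 5 to 8, −0.21 to 0.08 without single libraries). Called connexins whose values within libraries 1 to 4 and within 5 to 8 were over 1.5 times apart were cx52.9 (−2.34 and −1.38), cx27.5 (−1.64 and −0.61), cx52.7 (−1.59 and −0.54), cx28.9 (−0.90 and −0.37) and GJD4 (1.17 and 2.12). The pair ratios and their alternatives were chosen after seeing the data. The cause of these changes was not tested.

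The labels do not say that libraries of the same number share a day or clutch. The correlations of their deviations were −0.165 to 0.277, and 3 of 8 TP libraries were closest to their own number, so the numbers were not taken as pairs. With a replicate block 12 connexins were lower and 2 higher, cx52.7 (−1.06, edgeR adjusted p = 0.011) and cx31.7 (0.94, edgeR adjusted p = 0.022) no longer passing, and 10702 genes were called. Low counts limit cx52.9, cx27.5, cx52.7, cx31.7 and cx39.4, and counting both mates of each pair overstates the reads behind every value.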
